A study of Rattus norvegicus with 86 samples.

Results

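The expression of 51 genes named as cytochrome P450s and other detoxifying or acyl-CoA handling enzymes was examined in prelimbic cortex (PL) tissue, which belongs to the medial prefrontal cortex, from 80 Heterogeneous Stock (HS) rats. The members were all genes of the expression table whose identifier was paired, in the study's lists of genes with expression QTLs (eQTLs), with a name starting with Cyp and a digit, Gst, Ugt, Aldh, Adh, Akr, Ces, Sult, Ephx, Hsd, Nqo, Acs, Aca, Acot or Abc. This rule gave 53 genes, of which 51 were among the 17250 genes of the table; Aldh1a7 and Cyp26c1 were not. Names were known for 3292 genes, or 19.1% of the table, so other genes of these families were not examined. A name of 34 members came from a list of genes with eQTLs in the infralimbic cortex. A name of 18 came from a list of genes with the strongest eQTLs specific to 1 of the brain regions studied, with 1 in both lists. For 3 of the 18 that region was PL, so the variation of these 3 in PL had helped to choose them. The others of the 18 were listed as specific to another region, which may also have depended on their values in PL. The infralimbic eQTLs came from the same cohort of rats, and the study reports that eQTLs were widely shared, most of all between its cortical regions. The choice of the 34 was therefore also not independent of variation between rats in PL.

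HS rats are an outbred population derived from inbred founder strains, in which each animal carries its own mixture of founder chromosomes. The study reports that all animals were group housed and had received no behavioural or drug treatment. The labels gave no age, though the study reports a mean age for each sex of its cohort. RNA sequencing of polyA RNA was done on bilateral PL tissue from 40 males and 40 females, with 1 library per rat and no treated group. The labels also gave a rat batch, which was batch 2 for 14 rats (3 females and 11 males), batch 3 for 23 (13 and 10), batch 4 for 26 (15 and 11), batch 6 for 16 (8 and 8) and batch 5 for 1 female. What a batch shared (arrival, dissection or sequencing) was not stated. Another 6 PL samples of the series were removed by the authors and were not used. The recovered depth of a library was 10174405 to 32218170 counts, with a median of 17995302, and the median of each batch with more than 1 rat lay between 17365404 and 19247769.

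Cytochrome P450s are haem enzymes that add oxygen to drugs, sterols, fatty acids and retinoic acid, which is the first phase of detoxification. Aldehyde dehydrogenases and aldo-keto reductases remove reactive aldehydes, sulfotransferases and glutathione transferases attach polar groups in the second phase, and ABC transporters export the conjugates and lipids. In brain the same families mainly handle neurosteroids, oxysterols, retinoic acid, lipid aldehydes and fatty acyl groups, and several act in glia or at the blood vessels. The members divided into 13 P450s, 10 aldehyde dehydrogenases, alcohol dehydrogenase-like genes and aldo-keto reductases, 5 conjugating enzymes, 4 hydroxysteroid dehydrogenases and like proteins, 9 acyl-CoA enzymes, 9 ABC proteins and Acap3. The label was not right for every member: Acap3 is a GTPase-activating protein for Arf that matched by the start of its name alone, Abcf3 is an ABC protein of translation and not a transporter, Acad9 assembles respiratory complex I, and Aldh16a1 lacks a catalytic residue in mammals. No member had a name starting with Ugt, Ces, Ephx or Nqo, and no member had the same values as another gene.

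Values were log2 of an adjusted read count after adding 1, and they were not divided by gene length, so they gave changes between rats and not levels between genes. Of the 51 members, 46 were detected in every rat and 39 had a mean of at least 5 (76.5%, against 75.5% of all genes). The largest mean values were 12.86 ± 0.18 (SD, n = 80) for Sult4a1, a sulfotransferase of neurons with no established substrate, 12.20 ± 0.17 for Acsl3, a long-chain acyl-CoA synthetase, 11.67 ± 0.16 for Acap3, 10.99 ± 0.14 for Gsto1, an omega-class glutathione transferase, and 10.43 ± 0.11 for Abcf3. The smallest were 1.89 ± 1.29 for Cyp2d5, 2.13 ± 0.96 for Abca12, a lipid transporter of skin, 2.54 ± 0.74 for Sult6b1, a sulfotransferase, 3.17 ± 1.57 for Cyp2d3, and 3.31 ± 0.68 for Akr7a3, an aflatoxin aldehyde reductase. The lowest rat was at 0 for Cyp2d5, Abca12, Sult6b1 and Cyp2d3, while Sult4a1 ran from 5841 to 9226 adjusted counts. The 5 members with the largest SD were Cyp2d3, Cyp2d5, Abca12, Acsm3 (0.90), a medium-chain acyl-CoA synthetase, and Cyp26a1 (0.78), a retinoic acid hydroxylase, and all 5 had means under 5.

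The spread that remained after sex and batch means were removed was set beside that of genes of like mean (within 0.5). It was larger than in 98.5% of such genes for Cyp26b1, which breaks down retinoic acid, in 98.4% for Abcg2, the efflux transporter of the blood-brain barrier, in 96.2% for Acadsb, an acyl-CoA dehydrogenase of isoleucine breakdown, and in 96.1% for Sult1a1, a phenol sulfotransferase. Abcg2 ran from 5.83 to 8.64 with a median of 7.51, Cyp26b1 from 7.51 to 10.01 with a median of 8.55, and Sult1a1 from 7.03 to 9.15 with a median of 8.12. The least variable members on this measure were Cyp2u1, a fatty acid hydroxylase, whose spread was above that of 7.76% of like genes, and Abcc2, an exporter of conjugates, above 8.33%. The members named here for spread above like genes were picked after their values were seen. Cyp26b1, Abcg2, Acadsb and Sult1a1 all came from the infralimbic eQTL list, so their choice was not independent of spread between rats.

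Rat batch moved the members about as often as other genes. The moderated F-test of limma over batches, with sex in the model, passed an adjusted p of 0.05 for 29 of 51 members, where 59.4% of all genes passed. For a direction, the mean of batches 4 and 6 was set against the mean of batches 2 and 3, a split chosen with earlier results of these data known. On it 28 of 51 members (54.9%) passed, against 55.4% of all genes. Of these, 13 were higher in batches 4 and 6 (28.8% of all genes were) and 15 were lower (26.6% of all genes were). Of the 28, 15 also passed when the rats of any 1 of the 4 batches were left out, and the other 13 did not. The median difference was -0.05 over the members and 0.01 over all genes. The SEs and p-values of the contrast and of the F-test, here and below, come from the spread of rats within batches. They do not measure the spread between batches on the same side of the split.

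The plot of the contrast by member gives the direction in each enzyme class. Among the ABC proteins 5 of 9 were higher and 0 lower, and among the acyl-CoA enzymes also 5 of 9 were higher and 0 lower. Among the aldehyde dehydrogenases and aldo-keto reductases 1 of 10 was higher and 6 were lower, among the hydroxysteroid dehydrogenases 3 of 4 were lower, and among the P450s 1 of 13 was higher and 4 were lower. Of the conjugating enzymes 1 of 5 was higher and 2 were lower. Of all genes, 28.8% were higher and 26.6% lower. When the rats of 1 batch were left out, many of these calls were lost. The only ones that always held were Cyp26b1 among the P450s, Hsd17b12 among the hydroxysteroid dehydrogenases and Sult4a1 among the conjugating enzymes. In the other classes the calls lost were those of Abcc2, Acsl3, Acsm3, Adhfe1 and Aldh7a1. The class counts are over genes picked with results known, and whether the classes differ was not tested.

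**Figure D1:**
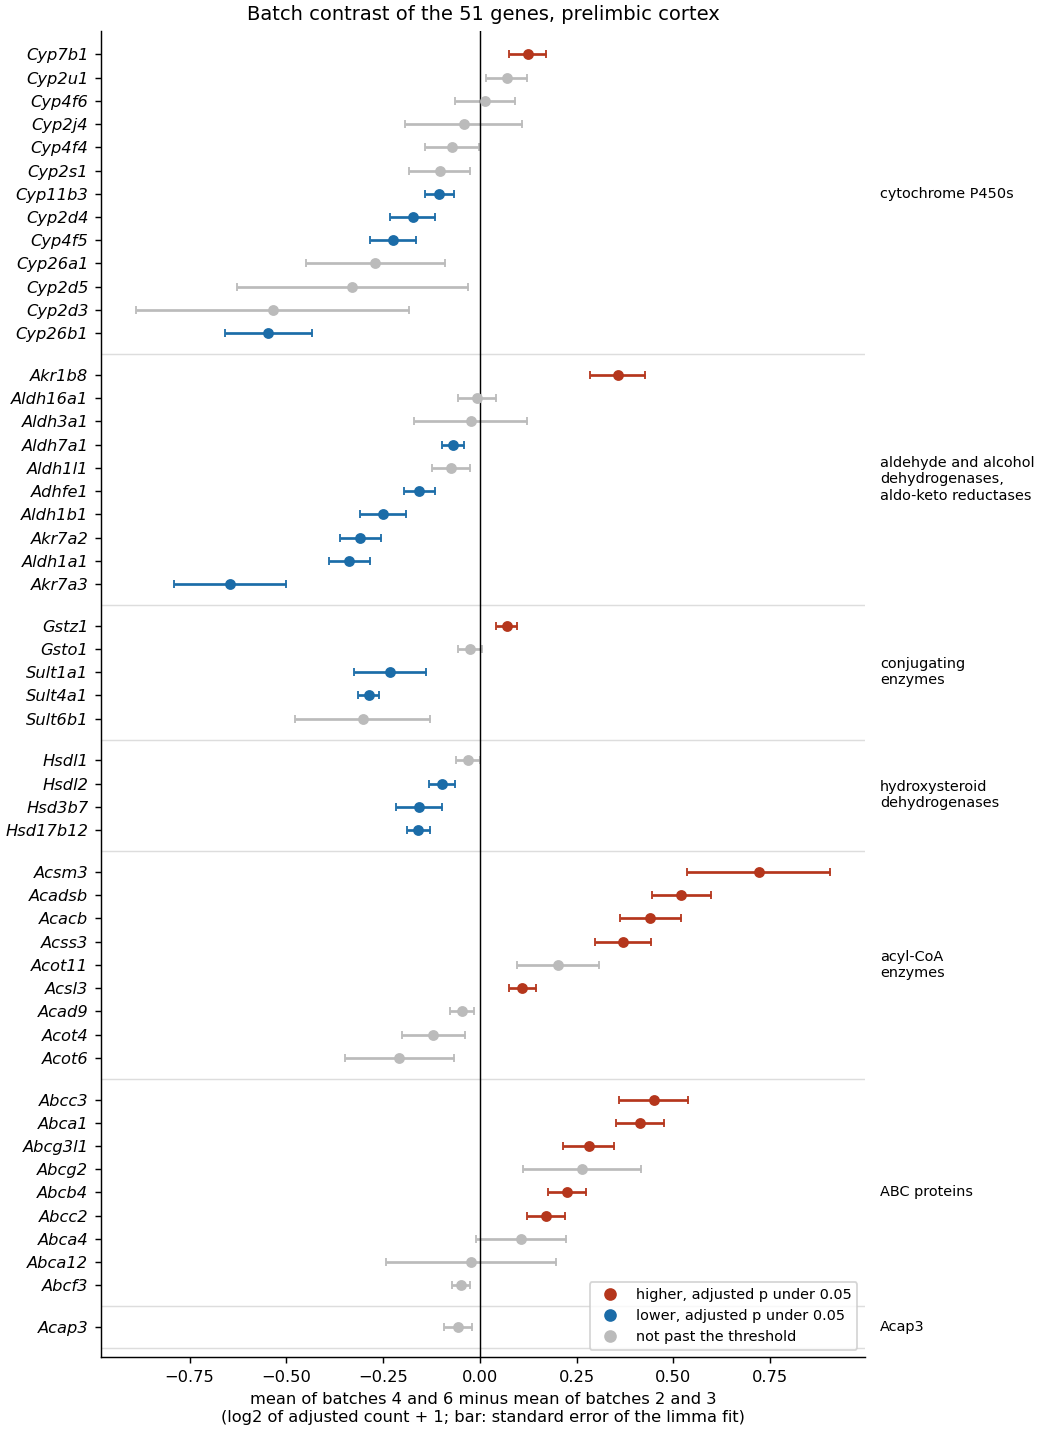
Each point is the difference of 1 member between the mean of batches 4 and 6 and the mean of batches 2 and 3, on the log2(adjusted count + 1) scale, with the standard error of the limma fit over 80 rats as a bar. Red and blue points passed an adjusted p of 0.05 (13 higher, 15 lower) and grey points did not, and the ABC proteins and acyl-CoA enzymes that passed all lie to the right of 0.

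Other measures moved with the same split. The gene named 5.8S rRNA, which a polyA library should hold little of, had means of 9.55 and 9.04 in batches 2 and 3 but of 2.52 and 2.98 in batches 4 and 6, a difference of -6.59 (SE 0.44, adjusted p = 2.27e-21). The split was not clean, as batch 3 ran from 1.58 to 13.04 (SD 3.27). Its lowest value was also the lowest of batches 4 and 6, whereas batch 2 began at 8.06. Slc32a1, the vesicular GABA transporter of inhibitory neurons, fell by 0.42 (SE 0.04), and Rgs5, a pericyte marker, was higher by 0.27 (SE 0.05). Vip, the other matched marker of inhibitory neurons, did not pass (-0.007, SE 0.04, adjusted p = 0.899). Neither did Neurod6, a marker of excitatory neurons (0.01, SE 0.04, adjusted p = 0.843). Mean recovered depth was 16987900, 17605300, 19966200 and 18199800 counts for batches 2, 3, 4 and 6. The part of these in the members' differences was not tested, and batch cannot be told apart from anything that was done batch by batch.

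The 8 members with the smallest p over batches are plotted by rat. Sult4a1 had the smallest p of the members. It ran from 12.77 to 13.13 in batch 2 (median 13.02) and from 12.73 to 13.17 in batch 3 (median 13.03), but from 12.53 to 12.94 in batch 4 (median 12.72) and from 12.51 to 12.88 in batch 6 (median 12.76). Of the rats of batches 4 and 6, 21 were below every rat of batches 2 and 3, while the others overlapped. The difference was -0.29 (SE 0.03, adjusted p = 1.09e-14), that is to 0.819 of the level in batches 2 and 3, and batch took 61.0% of the variance of this gene.

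Akr7a2 reduces succinic semialdehyde, the aldehyde formed when GABA is broken down. Its range was 8.55 to 9.09 for batch 2 and 8.47 to 9.23 for batch 3, against 8.12 to 8.84 for batch 4 and 7.69 to 8.92 for batch 6. Of the rats of batches 4 and 6, 17 were below all rats of batches 2 and 3. It fell by 0.31 (SE 0.05, adjusted p = 4.47e-07). Aldh1a1 makes retinoic acid from retinal and oxidises dopamine-derived aldehydes. Its medians were 8.27, 8.12, 7.88 and 7.77 in batches 2, 3, 4 and 6, its range over all rats was 7.36 to 8.80, and it fell by 0.34 (SE 0.05, adjusted p = 9.35e-08), again with overlap.

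Acadsb had medians of 9.31, 8.88, 9.69 and 9.63 in batches 2, 3, 4 and 6. Batch 3 was the lowest, with 8.52 as its lowest rat and 9.95 as its highest, and the difference was 0.52 (SE 0.08, adjusted p = 1.44e-08), or 1.43-fold. Abca1, which moves cholesterol out of cells onto apolipoproteins, had medians of 8.28, 8.33, 8.51 and 8.81. All 16 rats of batch 6 lay at or above 8.52, against medians of at most 8.33 in batches 2 and 3, and the difference was 0.41 (SE 0.06, adjusted p = 1.52e-08), or 1.33-fold.

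Acacb, which makes the malonyl-CoA that restrains fatty acid entry into mitochondria, had medians of 6.75, 6.86, 7.12 and 7.40 and a difference of 0.44 (SE 0.08, adjusted p = 1.89e-06). Abcc3, an exporter of organic anion conjugates, had medians of 4.55, 4.52, 4.86 and 5.23 and a difference of 0.45 (SE 0.09, adjusted p = 1.14e-05). Acss3, a short-chain acyl-CoA synthetase of mitochondria, had medians of 6.50, 6.39, 6.79 and 6.83 and a difference of 0.37 (SE 0.07, adjusted p = 7.55e-06). For each of these the ranges of the batches overlapped: 17, 7 and 3 rats of batches 4 and 6 were above every rat of batches 2 and 3.

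**Figure D2:**
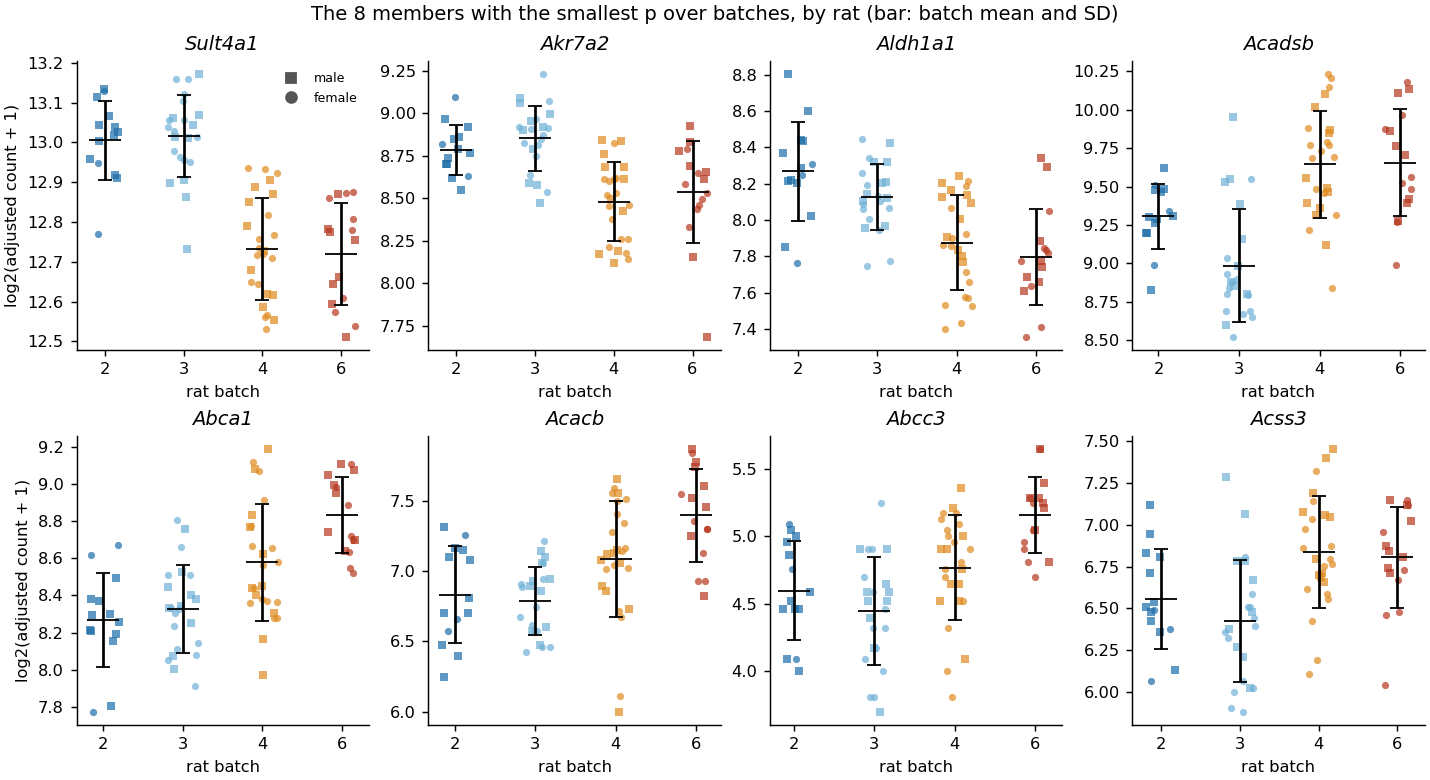
Each point is 1 rat (square for male, circle for female) and the y axis is log2(adjusted count + 1) of the 8 members with the smallest p over batches; the bar is the batch mean with its SD, and the single rat of batch 5 is left out. Sult4a1, Akr7a2 and Aldh1a1 are lower in batches 4 and 6 and the other 5 members are higher, with rats of all batches overlapping.

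Cyp2d3 had the widest range of the members, 5.21, and Cyp2j4 came next at 5.00, with 1 rat at 0. Cyp2d3, Cyp2d5 and Cyp2d4 belong to the CYP2D family, which metabolises many drugs and, in brain, tyramine and neurosteroids, and Cyp2d4 is its main brain form in the rat. In the RefSeq annotation they lie in a row on chromosome 7 in the order Cyp2d4, Cyp2d5, Cyp2d1, Cyp2d3, Cyp2d2. The sequence of 250 bases before each RefSeq start is shown for Cyp2d3 and Cyp2d5 because their levels went together. Both are on the minus strand of GRCr8 (chr7:115802143-115802392 for Cyp2d3 and chr7:115784488-115784737 for Cyp2d5), and capitals mark the bases that differ within the stretch that aligned.
Cyp2d3: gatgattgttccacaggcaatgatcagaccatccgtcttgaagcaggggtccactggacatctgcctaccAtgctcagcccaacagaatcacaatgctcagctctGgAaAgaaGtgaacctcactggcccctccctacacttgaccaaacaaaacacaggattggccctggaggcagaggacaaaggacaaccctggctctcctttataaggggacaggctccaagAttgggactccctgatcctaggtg
Cyp2d5: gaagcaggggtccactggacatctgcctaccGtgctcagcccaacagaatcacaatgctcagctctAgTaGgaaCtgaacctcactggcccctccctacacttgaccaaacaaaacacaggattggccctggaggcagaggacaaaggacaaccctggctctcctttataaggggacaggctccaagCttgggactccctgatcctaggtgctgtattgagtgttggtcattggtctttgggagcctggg
The best local alignment covered 211 positions with 6 mismatches and 0 gaps, so 97.2% were identical. The window of Cyp2d4 shared at most 9 bases in a row with either in the same alignment. Both windows also held TATAAA on the reverse strand, a motif that 12.9% of 33469 RefSeq windows of this length held on either strand, and the window of Cyp2d4 did not.

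Cyp2d3 and Cyp2d5 were the 2 members that split the rats into separate groups by a mixture of 2 normal distributions, where 2.46% of all genes did. For Cyp2d3, 15 rats lay between 0 and 1.58 (0 to 2 adjusted counts) and 65 rats between 2.32 and 5.21 (4 to 36 adjusted counts), with a gap of 3.57 between the fitted means. For Cyp2d5, 26 rats lay between 0 and 1.00 and 54 between 1.58 and 3.81 (up to 13 adjusted counts), with a gap of 2.43. These groups are a description of the values and were given by no label. Both genes came from the infralimbic eQTL list, so their choice was not independent of differences between rats.

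The lower groups shared 13 rats, which were 86.7% of the 15 low for Cyp2d3 and 50.0% of the 26 low for Cyp2d5. Cyp2d3 was at 0 in 12 rats and Cyp2d5 at 0 in 20, and Cyp2d5 was at 0 in all 12 rats without Cyp2d3. In the 15 rats of the lower Cyp2d3 group, Cyp2d5 ran from 0 to 5 adjusted counts with a median of 0, and in the other 65 from 0 to 13 with a median of 4. Cyp2d4 did not follow: its median was 187 adjusted counts in the lower group and 175 in the higher, with 257 and 268 as the highest rats. The lower group held 8 males and 7 females, and by batch it took 2 of the 14 rats of batch 2, 3 of 23 in batch 3, 7 of 26 in batch 4, 2 of 16 in batch 6 and the rat of batch 5. Recovered depth overlapped, from 10174405 to 21818884 (median 18617803) in the lower group and from 11176797 to 32218170 (median 17912041) in the higher.

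Because the rats fell into groups, no correlation over all rats is given for these genes. Within the 65 rats of the higher Cyp2d3 group, Cyp2d3 and Cyp2d5 correlated with Pearson's r = 0.31 (permutation p = 0.0115, 0.0346 adjusted over 6 relations) and Spearman's rho = 0.36 (permutation p = 0.00368), and r was 0.27 without the 2 rats farthest from the median of Cyp2d3. Cyp2d3 and Cyp2d4 had r = 0.07 (permutation p = 0.591) and rho = 0.07 (permutation p = 0.56) in the same rats. Some of the 65 were in the lower Cyp2d5 group. In the 52 rats in the higher group of both genes, Cyp2d3 and Cyp2d5 had r = 0.38 (permutation p = 0.00559, 0.0335 adjusted over 6 relations). There rho was 0.37 (permutation p = 0.00824), and r was 0.30 without the 2 farthest rats. All Cyp2d3 counts together came to 990 over 80 rats, those of Cyp2d5 to 333 and those of Cyp2d4 to 14174. RSEM divides reads that fit more than 1 similar gene by its estimate, so the split of counts between Cyp2d3 and Cyp2d5 is uncertain. Only the bases before their starts were compared here, and not their transcripts. The part of shared reads in the groups was not tested. The separation was not called for either gene with a pseudocount of 10, and only for Cyp2d3 with batch also removed.

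**Figure D3:**
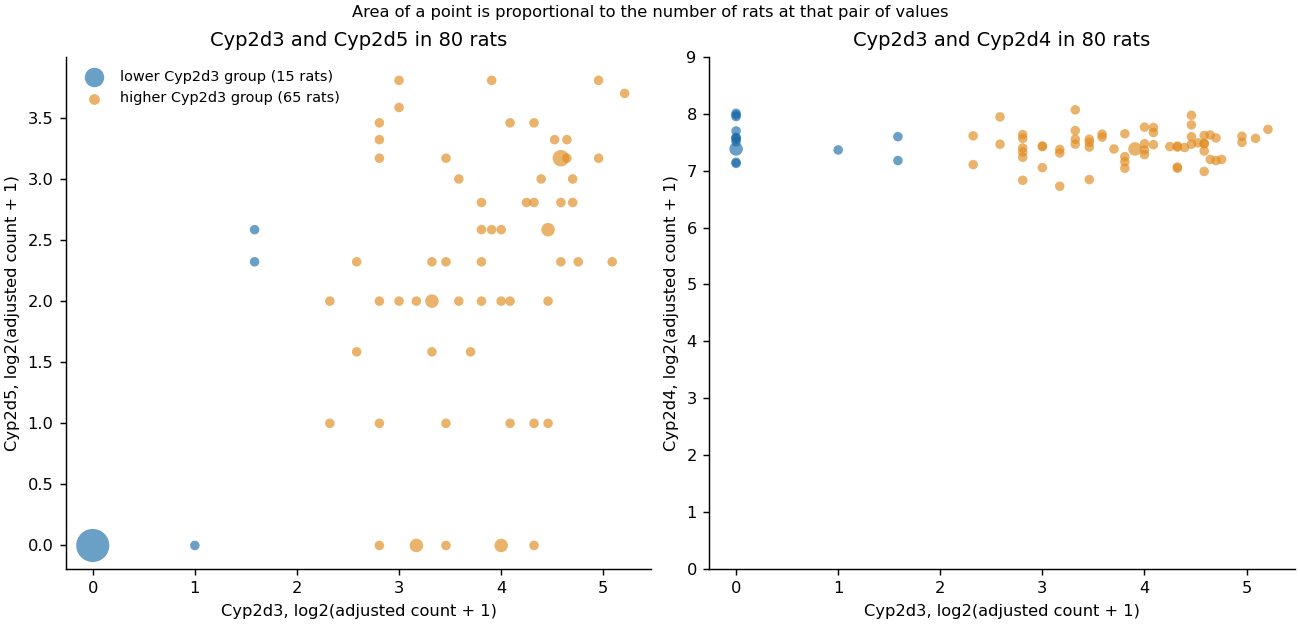
Each point stands for the rats at 1 pair of values, its area in proportion to their number, with Cyp2d3 on the x axis and Cyp2d5 (left) or Cyp2d4 (right) on the y axis, all as log2(adjusted count + 1). The large point at the origin on the left is the 12 rats in which both Cyp2d3 and Cyp2d5 were at 0, while Cyp2d4 stays between 6.73 and 8.07 in both groups of rats.

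Cyp26b1 and Cyp26a1 hydroxylate retinoic acid and so limit its signal. Cyp26b1 had medians of 8.89, 8.82, 8.38 and 8.07 in batches 2, 3, 4 and 6, and fell by 0.55 (SE 0.11, adjusted p = 1.92e-05), to 0.685 of the level. Cyp26a1 ran from 1 to 24 adjusted counts and its difference of -0.27 (SE 0.18, adjusted p = 0.202) did not pass. Over 80 rats the residuals of the pair had r = 0.24 (permutation p = 0.0316, 0.0526 adjusted over 10 pairs) and rho = 0.20 (permutation p = 0.0774), with r from 0.00 to 0.35 within batches, so the relation did not pass. The 250 bases before the RefSeq start of Cyp26a1 are shown (GRCr8, chr1:244883572-244883821, plus strand), since this gene is known for its response to retinoic acid, with a direct repeat of the kind that retinoic acid receptors bind in capitals. The motif searched was AGTTCA followed on the same strand, after any 5 bases, by AGTTCA again, and it lies on the other strand, so the capitals give its complement read backwards.
Cyp26a1: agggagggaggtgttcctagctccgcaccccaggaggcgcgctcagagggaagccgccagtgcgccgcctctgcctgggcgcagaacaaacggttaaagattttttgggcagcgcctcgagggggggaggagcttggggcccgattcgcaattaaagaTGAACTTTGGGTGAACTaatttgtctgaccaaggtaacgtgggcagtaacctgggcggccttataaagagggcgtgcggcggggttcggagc
The motif, searched on both strands, lay 92 to 76 bases before the start and stood in 3 of 33469 windows (0.00896%) and in 1 of the 42 members' windows that could be matched. A match of letters is a description and was not related to the level of the gene here. Of other motifs, TGACNNNGC, the core of the antioxidant response element, stood in 5 of 42 members' windows and 10.1% of all windows, and GCGTG, the core bound by the aryl hydrocarbon receptor, in 13 of 42 and 25.9%.

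Of the genes of retinoic acid handling, 6 of 18 on the list could be matched, and 1 was higher and 1 lower in batches 4 and 6. Crabp2, a binding protein that carries retinoic acid to its receptors, was higher by 1.02 (SE 0.32, adjusted p = 0.00442), with 0 to 4.91 as its range over rats, and Rara, a retinoic acid receptor, fell by 0.22 (SE 0.06, adjusted p = 0.000822). Rbp4, Rxra and Nr2f1 were among those that did not pass on this contrast. Aldh1a1, which makes retinoic acid, and Cyp26b1, which removes it, were thus both lower in batches 4 and 6.

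The Cyp4f genes encode fatty acid hydroxylases that inactivate leukotrienes. Cyp4f4 ran from 6.09 to 7.65, Cyp4f5 from 5.32 to 6.82 and Cyp4f6 from 5.43 to 6.89. Only Cyp4f5 of the 3 passed on the batch contrast, at -0.22 (SE 0.06, adjusted p = 0.000983). Cyp4f4 and Cyp4f6 rose and fell together, with r = 0.34 and rho = 0.34 (permutation p = 0.00198 and 0.00253, 0.0066 and 0.00633 adjusted over 10 pairs), r = 0.23 without the 2 rats farthest from the median of Cyp4f4, and r from 0.07 in batch 4 to 0.65 in batch 6. Cyp4f4 and Cyp4f5 had r = 0.33 (permutation p = 0.00303, adjusted 0.00757), which fell to 0.22 without the 2 farthest rats, and rho = 0.21 (permutation p = 0.0623), so the relation did not hold on ranks. Cyp4f5 and Cyp4f6 had r = 0.09 (permutation p = 0.405) and rho = 0.10 (permutation p = 0.379).

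Among the other P450s, Cyp7b1, the oxysterol hydroxylase, was higher in batches 4 and 6 by 0.12 (SE 0.05, adjusted p = 0.0241), a call that was lost with depth in the model (adjusted p = 0.119). Cyp2d4 fell by 0.17 (SE 0.06, adjusted p = 0.00897). Cyp11b3, a member of the family that makes corticosteroids in the adrenal, had 540 to 966 adjusted counts and fell by 0.10 (SE 0.04, adjusted p = 0.0161); it has close copies among which reads could be divided, so its level is uncertain. Cyp2j4, an arachidonic acid epoxygenase, Cyp2s1 and Cyp2u1 did not pass on the contrast, with differences of -0.04, -0.10 and 0.07. Of 16 sterol and neurosteroid enzymes on a list, 3 were matched, and Fdxr, the reductase of the ferredoxin that supplies mitochondrial P450s with electrons, fell by 0.23 (SE 0.05), Srd5a1, steroid 5-alpha reductase, by 0.09 (SE 0.03), while Tspo was at -0.10 (adjusted p = 0.424).

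Among the reductases and aldehyde dehydrogenases, Akr7a3 had the largest difference. It had medians of 3.95, 3.58, 3.08 and 2.90 in batches 2, 3, 4 and 6, at 2 to 24 adjusted counts, and fell by 0.65 (SE 0.14, adjusted p = 9.02e-05). Akr1b8, an aldose reductase-like enzyme, went the other way, by 0.36 (SE 0.07, adjusted p = 1.12e-05). Aldh1b1, of mitochondria, fell by 0.25, Adhfe1, a hydroxyacid transhydrogenase, by 0.16, and Aldh7a1, of lysine breakdown, by 0.07 (SE 0.03, adjusted p = 0.0303), which without the rats of batch 3 was 0.01 and did not pass. Aldh1l1, of folate metabolism and known from astrocytes, was at -0.08 (adjusted p = 0.187), Aldh16a1 at -0.01 and Aldh3a1 at -0.02. Akr7a2 and Akr7a3, which share a subfamily, had r = 0.31 and rho = 0.34 (permutation p = 0.0056 and 0.00186, 0.0112 and 0.0062 adjusted over 10 pairs), r = 0.29 without the 2 farthest rats, and r of -0.04, 0.24, 0.46 and 0.38 in batches 2, 3, 4 and 6. As 39.5% of all genes correlated with Akr7a2 at least as strongly, this value does not set the pair apart.

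Of the conjugating enzymes, Gstz1, which also degrades tyrosine products, was higher by 0.07 (SE 0.03, adjusted p = 0.0307), and Sult1a1 fell by 0.23 (SE 0.09, adjusted p = 0.0281), with batch 6 lowest (mean 7.77, against 8.16 to 8.29 in batches 2, 3 and 4). Without the rats of batch 6 Sult1a1 was at -0.01 (adjusted p = 0.939), so its difference rested on that batch. Gsto1 was at -0.03 and Sult6b1 at -0.30 (adjusted p = 0.133). Of 22 glutathione and antioxidant genes on a list, 4 were matched, of which Slc7a11, the cystine importer, was higher by 0.32 (SE 0.06), Cat, catalase, by 0.07 (SE 0.02), and Gss, glutathione synthetase, fell by 0.13 (SE 0.04). Hmox1 was at -0.18 (adjusted p = 0.0524). Of 11 xenobiotic sensing receptors, 5 were matched: Ahr was higher by 0.29 (SE 0.06) and Nr1h3 by 0.24 (SE 0.08), Ppard fell by 0.16 (SE 0.04), and Ahrr and Rxra did not pass.

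Hsd17b12, which reduces 3-ketoacyl-CoA in chain elongation and can act on oestrone, fell by 0.16 (SE 0.03, adjusted p = 5.11e-06), from means of 10.30 and 10.22 in batches 2 and 3 to 10.14 and 10.06 in batches 4 and 6. Hsd3b7, of bile acid synthesis, fell by 0.16 (SE 0.06, adjusted p = 0.0213) and Hsdl2 by 0.10 (SE 0.03, adjusted p = 0.0113). Hsdl1 was at -0.03 (adjusted p = 0.42). Hsdl1 and Hsdl2 had r = 0.07 (permutation p = 0.556) and rho = 0.08 (permutation p = 0.508).

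Among the acyl-CoA enzymes, Acsm3 had the largest difference of all members, 0.72 (SE 0.18, adjusted p = 0.000574), at 1 to 41 adjusted counts. Without the rats of batch 3, whose mean was 2.72 against 3.37, 3.70 and 3.74 in batches 2, 4 and 6, it was 0.45 and did not pass (adjusted p = 0.147). Acsl3 was higher by 0.11 (SE 0.03, adjusted p = 0.00477), with batch 4 highest, and without the rats of batch 4 it was at 0.02 (adjusted p = 0.732). Acad9 was at -0.05 and Acot11, a thioesterase, at 0.20 (adjusted p = 0.098). Of 20 other fatty acyl-CoA enzymes on a list, 3 were matched, of which Hadhb, of beta-oxidation, fell by 0.08 (SE 0.02) while Cpt1c and Fads2 did not pass.

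Acot4 and Acot6, peroxisomal acyl-CoA thioesterases of one gene cluster, went in opposite directions. Acot4 ran from 55 to 167 adjusted counts (median log2 value 6.80) and Acot6 from 8 to 71 (median 5.00). In residuals over 80 rats r was -0.50 and rho -0.51 (permutation p = 1e-05 for each, the smallest that 100000 permutations can give, and 5e-05 adjusted over 10 pairs). It was -0.49 without the 2 rats farthest from the median of Acot4, and -0.55, -0.39, -0.29 and -0.79 in batches 2, 3, 4 and 6. Among all genes, 0.0116% correlated with Acot4 at least as strongly in either direction. The share of Acot4 in the sum of both genes ran from 48.6% to 94.2% with a median of 76.6%, while the sum ran from 92 to 196 adjusted counts with an SD of 0.24 on the log2 scale, against 0.35 for Acot4 and 0.62 for Acot6. Reads that fit both genes are divided between them by RSEM, which can of itself set one against the other; its part here was not tested.

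**Figure D4:**
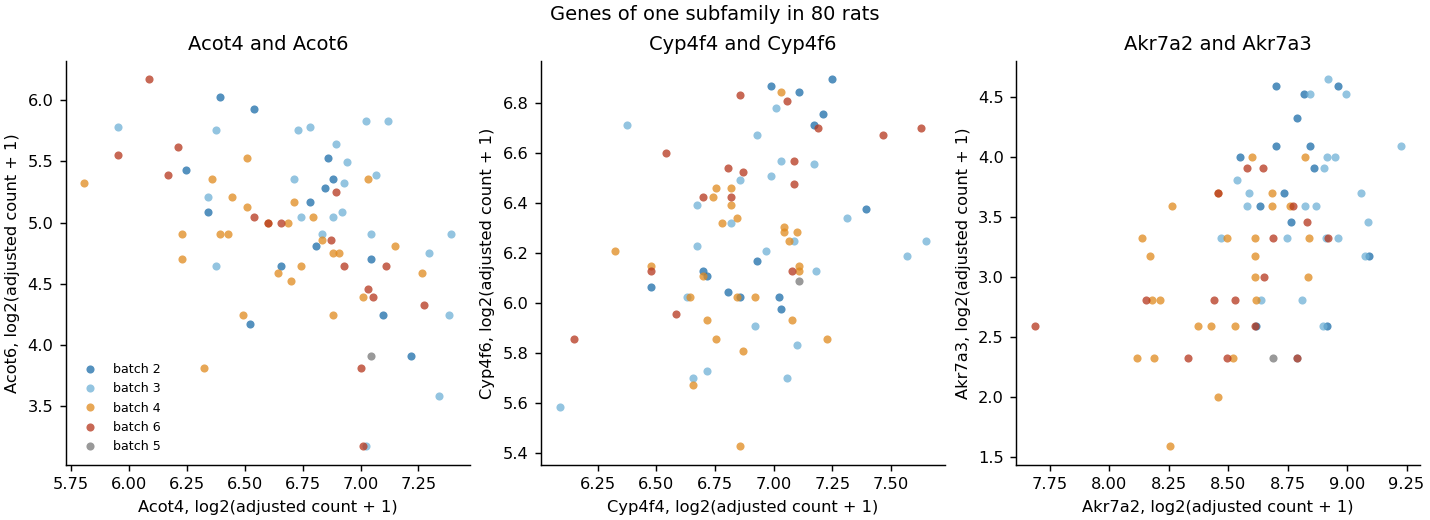
Each point is 1 rat, coloured by batch, with log2(adjusted count + 1) of 1 gene of a subfamily on each axis. Acot6 falls as Acot4 rises (r = -0.50 in residuals), whereas Cyp4f4 with Cyp4f6 (0.34) and Akr7a2 with Akr7a3 (0.31) rise together.

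Of the ABC proteins, Abcg3l1 was higher by 0.28 (SE 0.06, adjusted p = 0.000145), Abcb4, which moves phosphatidylcholine, by 0.23 (SE 0.05, adjusted p = 4.94e-05) and Abcc2 by 0.17 (SE 0.05, adjusted p = 0.00221). Abcg2 had a like difference, 0.26, but with an SE of 0.15 it did not pass (adjusted p = 0.136). Abca4, known from the retina, was at 0.11 (adjusted p = 0.45), Abca12 at -0.02 and Abcf3 at -0.05 (adjusted p = 0.0641). Of 12 other transporters of the blood-brain barrier on a list, 0 could be matched by name.

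No member differed between males and females at an adjusted p of 0.05. The limma comparison with batch in the model called 0 of 51 members, at an unadjusted p under 0.05 it picked 3 (Acss3, Aldh1a1 and Cyp7b1), and 0.365% of all genes were called, with 7.82% at an unadjusted p under 0.05. No other tool was run on this comparison. Acss3 ran from 6.02 to 7.45 in males (median 6.78, n = 40) and from 5.88 to 7.32 in females (median 6.53, n = 40), with almost complete overlap. With batch in the limma model, Acss3 was higher in males by 0.26 (SE 0.07, adjusted p = 0.0792), or 1.20-fold. Its mean was higher in males by 0.31, 0.30, 0.25 and 0.21 in batches 2, 3, 4 and 6. Aldh1a1 ran from 7.61 to 8.80 in males (median 8.14) and from 7.36 to 8.45 in females (median 7.86). In the same model it was higher in males by 0.18 (SE 0.05, adjusted p = 0.142), and its means differed by 0.21, 0.09, 0.26 and 0.16 within the batches. Cyp7b1 was at 0.10 (SE 0.05, adjusted p = 0.633). With batch in the model, the difference was toward males for 38 members and toward females for 13, with a median of 0.02. Of all genes 51% were higher in males by the same measure, with a median of 0.0013, and this direction was not tested. For the interaction of sex with batch, limma called 0 of 51 members and 0.0% of all genes, with 2.38% of all genes at an unadjusted p under 0.05.

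In bulk tissue a change in a gene may come with fewer cells of a type or with less RNA per cell, and these cannot be told apart. Markers of cell types were therefore set beside the members over the 80 rats, both as residuals on sex and batch. Of the marker lists only that of microglia had 3 matched genes (C1qa, P2ry12 and Itgam of 8). For the others single markers were used: Opalin for oligodendrocytes, Rgs5 for mural cells, Dcn for meningeal cells, Neurod6 for excitatory neurons, and Slc32a1 and Vip for inhibitory neurons. Each of the 51 members was set beside 7 markers, with p-values adjusted over all genes for each marker. No marker of astrocytes, endothelium or choroid plexus could be matched. Of the neuronal markers, Neurod6 had a mean log2 value of 11.08 and Slc32a1 of 10.25, so both neuron classes of the labelled cortex were represented. Dcn was at 7.87 and Opalin at 8.45.

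With Slc32a1, 15 of 51 members correlated (10 positively and 5 negatively) at a p adjusted over all genes, where 40.0% of all genes did. Sult4a1 had the largest value, with r = 0.79 and rho = 0.79 (permutation p = 1e-05 for both, adjusted p = 8.9e-05), as large as in 0.058% of all genes. It was 0.76 without the 2 rats farthest from the median of Slc32a1, and 0.48, 0.83, 0.85 and 0.79 in batches 2, 3, 4 and 6. Akr7a2 followed with r = 0.69 and rho = 0.63 (permutation p = 1e-05 for both), at 0.07, 0.52, 0.83 and 0.83 in the batches, so not in batch 2. Acadsb was the strongest in the other direction, with r = -0.60 and rho = -0.60, and Acsl3 had r = -0.57 and rho = -0.56 (permutation p = 1e-05 for each). Sult4a1 and Akr7a2 were lower, and Acadsb and Acsl3 higher, in batches 4 and 6, where Slc32a1 was lower. Vip, the other matched inhibitory marker, did not pass on that contrast (-0.007, adjusted p = 0.899), so the matched markers of inhibitory neurons did not move together on it. Whether Slc32a1 stands for the inhibitory neurons as a whole was not tested.

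With Neurod6, 19 of 51 members correlated (7 positively), where 33.9% of all genes did. The highest were Acsl3 (r = 0.52, rho = 0.44) and Hsdl2 (r = 0.52, rho = 0.51), and the lowest Acap3 (r = -0.60, rho = -0.55), with permutation p of 5e-05 or less for each. The members named above for Slc32a1 also passed with Neurod6, each with the opposite sign. Besides Acsl3 these were Sult4a1 (r = -0.43, rho = -0.44), Akr7a2 (r = -0.51, rho = -0.42) and Acadsb (r = 0.38, rho = 0.35). With Vip, 11 of 51 did (6 positively), where 20.5% of all genes did, led by Hsd17b12 (r = 0.49, rho = 0.50) and Gsto1 (r = 0.46, rho = 0.47), with permutation p of 3e-05 or less. These shares were near those of all genes.

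Other markers moved with fewer members. With the microglia score 4 of 51 members correlated, where 15.3% of all genes did. Aldh7a1 led with r = 0.55 and rho = 0.51 (permutation p = 1e-05 and 2e-05, adjusted p = 0.00124), 0.51 without the 2 farthest rats, and 0.60, 0.63, 0.42 and 0.55 in batches 2, 3, 4 and 6, and 0.0986% of genes were as large. Gsto1 had r = 0.42 and rho = 0.42 (permutation p = 0.00013 and 0.0002, adjusted p = 0.00408). The summed adjusted counts of the 3 microglia markers overlapped between batches, from 895 to 1733 in batch 3 as the widest. The 3 markers did not move together: C1qa fell by 0.19 (SE 0.05, adjusted p = 0.00147) in batches 4 and 6, P2ry12 was higher by 0.27 (SE 0.06, adjusted p = 0.000162), and Itgam was at 0.16 (adjusted p = 0.0872). The score averages them and the sum is mostly C1qa.

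With Opalin 2 of 51 members correlated, where 1.27% of all genes did. Aldh1a1 had r = 0.56 and rho = 0.54 (permutation p = 1e-05 for both, adjusted p = 0.00254), at 0.86, 0.58, 0.39 and 0.49 within the batches, and Cyp26b1 had r = 0.41 and rho = 0.38 (permutation p = 0.00012 and 0.00046, adjusted p = 0.0174), but -0.17 in batch 6. Opalin itself fell by 0.24 (SE 0.10, adjusted p = 0.0376) between the same batches as these members. With Dcn 1 of 51 did, where 0.383% of all genes did: Acss3 had r = 0.47 and rho = 0.47 (permutation p = 3e-05 and 5e-05, adjusted p = 0.0235), at 0.27, 0.24, 0.68 and 0.54 within the batches. Dcn was also higher in males by 0.25 (adjusted p = 0.261) and in batches 4 and 6 by 0.26 (adjusted p = 0.0064), the directions of Acss3. With Rgs5 2 of 51 did, where 9.21% of all genes did: Akr1b8 at r = 0.39 and rho = 0.44 (permutation p = 0.00038 and 4e-05) and Sult1a1 at r = -0.41 and rho = -0.42 (permutation p = 0.00012 for both). Sult1a1 was at 0.06 in batch 6 and at -0.41 to -0.64 in the other batches. The part of these cell types in the batch and sex differences of the members was not tested.

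**Figure D5:**
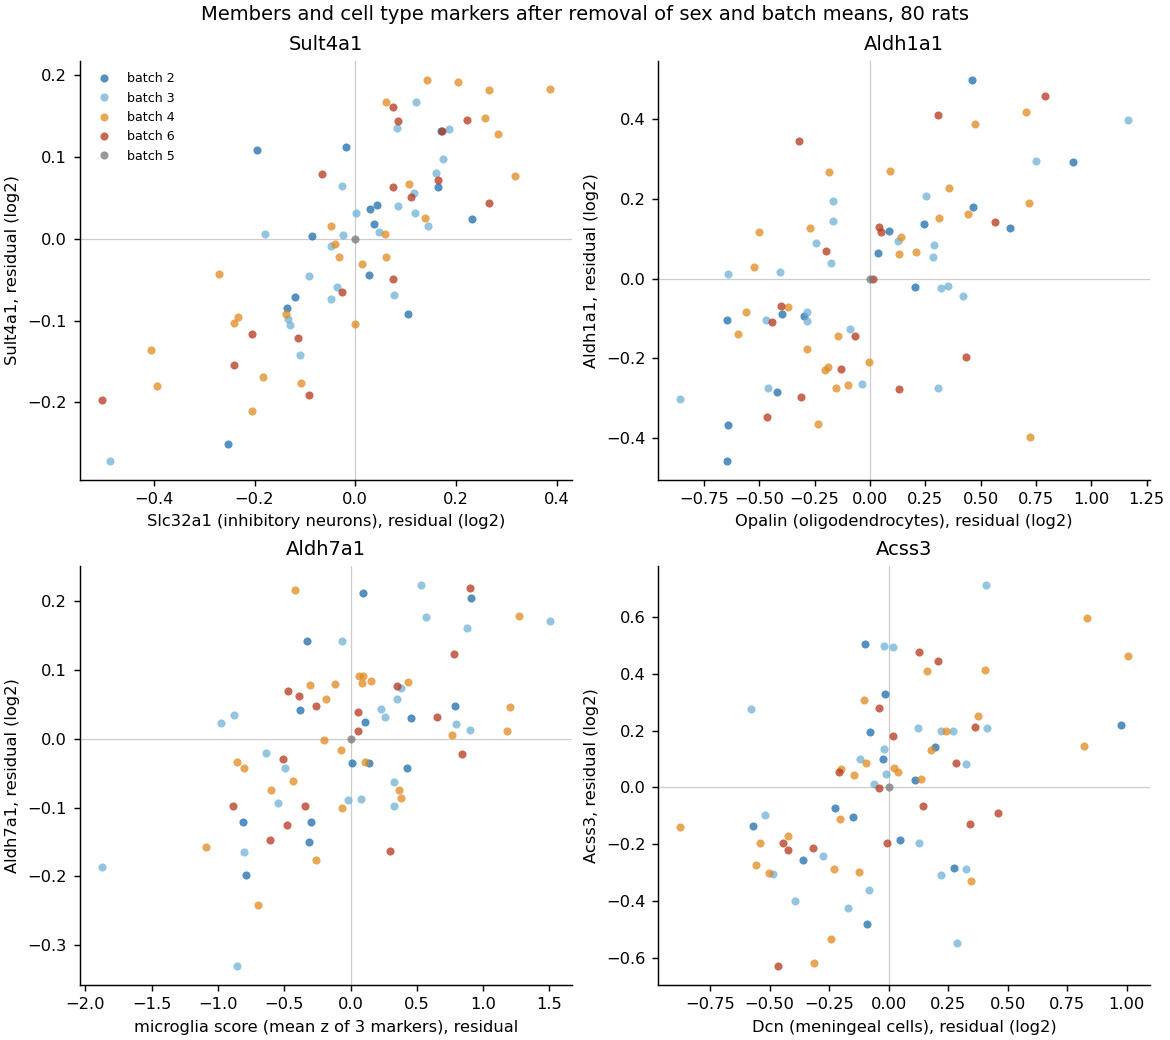
Each point is 1 rat, coloured by batch, with the residual of a marker (or of the mean z-score of 3 microglia markers) on the x axis and the residual of a member on the y axis, both after sex and batch means were removed. The 4 panels show Sult4a1 with Slc32a1 (r = 0.79), Aldh1a1 with Opalin (0.56), Aldh7a1 with the microglia score (0.55) and Acss3 with Dcn (0.47); the single rat of batch 5 is at 0 by construction.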

How the data were processed

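PL RNA was sequenced as 100-bp single-end reads. After trimming with cutadapt, the authors ran RSEM on the Ensembl transcriptome of the rat to estimate counts, scaled these by upper quartile in DESeq2, and removed some samples and weakly detected genes. The deposited values are log2 of the adjusted count plus 1. The build in the submitters' processing notes is Rnor_6.0; tool versions were not given in the sources used here. RSEM divides reads shared by similar genes, which makes paralogs uncertain. All values were log2 of whole numbers after 1 was subtracted (tolerance 0.1%), but these had been scaled and rounded, so no count test was run. All columns matched a sample by name.

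The members and lists were chosen with earlier results of these data known, and the columns of the study's own eQTL statistics were not used. Groups came from the sample labels. Each library's scaling factor was worked out from the whole numbers missing among its adjusted counts (search range 0.55 to 2.2). For 3 libraries the best factor stood apart from the next by under 10 log-likelihood units.

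Sex, batch, the batch contrast and their interaction were tested in each of 17250 genes with limma (3.58.1, under R 4.3.3), using lmFit and eBayes with its trend option, and p-values were Benjamini-Hochberg adjusted over all genes (threshold 0.05). The scripts were first tested on simulated data. Separate groups of rats needed a mixture of 2 normals on residuals on sex for which the BIC fell by over 10, the means differed by more than 4 SDs and by 1 log2 unit or more, and the smaller group held 10% of rats or more. Correlations used residuals on sex and batch and two-sided tests with 100000 permutations. Those within pairs were adjusted over the 10 pairs that could be computed of 12 fixed, and those with markers over all genes for each marker, which replaces an adjustment over members and lists that had been planned. The correlations inside the Cyp2d groups and the single markers were added after the data were seen. Named genes were members that passed for sex or split the rats, the 8 with the smallest p over batches, the 5 highest and 5 lowest means, the 5 largest SDs, the members of pairs and the 2 highest r for each marker; further members were named to account for all. Promoter windows are RefSeq GRCr8, a later build than that of the files, matched by symbol for 42 of 51 members, and aligned locally with Biopython 1.88. The precision of a value is limited by depth mainly for the 12 members with a mean under 5.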

Additional observations from a re-analysis of the deposited data

How the results depend on the processing

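Members with low counts (12 with a mean under 5) and genes that share reads with paralogs are the least certain, and names were known for only 19.1% of genes. The count of 0 members for sex and for the interaction held under every alternative run (a pseudocount of 10, a mean of at least 5, no variance trend, ranks, centred library medians for sex only and, for sex, no batch, no batch 5 rat or depth). The contrast called 28 of 51 members and 20 to 29 under the alternatives (55.4% of all genes, and 39% to 65.9%), and 15 members passed under every one that tested them: Abca1, Abcb4, Abcc3, Abcg3l1, Acacb, Acadsb, Acss3, Akr1b8, Akr7a2, Akr7a3, Aldh1a1, Aldh1b1, Cyp26b1, Hsd17b12 and Sult4a1. The other 13 lost the call when the rats of at least 1 batch were left out: Abcc2, Acsl3, Acsm3, Adhfe1, Aldh7a1, Cyp11b3, Cyp2d4, Cyp4f5, Cyp7b1, Gstz1, Hsd3b7, Hsdl2 and Sult1a1. A lost call was not always a smaller difference: without batch 3, Cyp11b3 was at -0.10 as with it, and Sult1a1 at -0.30 instead of -0.23. Without the rats of batch 3, members lower in batches 4 and 6 numbered 9 instead of 15 (18.9% of all genes instead of 26.6%), and Aldh7a1 turned from -0.07 to 0.012 and did not pass; the cause was not tested. Separate groups were called for 2 members, 1 (Cyp2d3) with residuals on sex and batch and 0 with a pseudocount of 10, while the count over all genes went from 425 to 266 and 169, and to 664 with means over 3 SDs apart. Sex called 63 genes over the table, and 38 with no batch in the model. Without residuals, 2 members passed with the microglia score instead of 4, 20 with Rgs5 instead of 2, 6 with Dcn instead of 1 and 31 with Slc32a1 instead of 15, where the shares of all genes went from 15.3% to 3.7%, 9.21% to 37.9%, 0.383% to 11.6% and 40.0% to 59.6%; the cause was not tested. No paired analysis was possible because the labels give no replicate or litter numbers. Centring the medians, leaving out a batch and the single markers were chosen after seeing the data.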
